A study of Mus musculus with 32 samples.

Results

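Midkine (Mdk) and pleiotrophin (Ptn) are secreted growth factors, and the 4 syndecans (Sdc1, Sdc2, Sdc3 and Sdc4) are cell surface proteoglycans that bind them. The RNA levels of these 6 genes were followed in mouse fibroblasts during chemical reprogramming and in the pluripotent lines that came out of it. The 6 genes were taken by their symbols, out of 55401 genes listed in every table, and all 6 were found and passed the filter on low values in every comparison. The set was chosen by the measured log2 change with overexpressed Rxra, where Mdk was among the largest rises, so in that comparison the 6 genes are described and not tested.

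The study asked how CD3254, a small molecule agonist of the retinoid X receptors, acts on the conversion of fibroblasts into chemically induced pluripotent stem cells (ciPSC). RNA was sequenced in 32 libraries, 2 for each of 16 groups. OG2X129 mouse embryonic fibroblasts in ciPSC reprogramming were given CD3254 (CD) or its solvent DMSO, carried overexpressed Rxra (Rxra OE) or the overexpression control (CTR), or carried a hairpin against the RNA exosome subunit Exosc3 (shE3) or a control hairpin (shCTR). Further CD and DMSO cultures were sampled at 0, 4 and 8 h of actinomycin D, which stops transcription.

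The last table holds CD-iPSC and DMSO-iPSC, which are induced pluripotent cells derived with CD or with DMSO, MEF, which are embryonic fibroblasts, and R1, a mouse embryonic stem cell line from a blastocyst. The titles of the DMSO-iPSC read DMSP, which was taken for DMSO because their genotype label is DMSO addition. The MEF libraries carry the genotype label of the control hairpin and a treatment label of ciPSC reprogramming; they were used as the fibroblasts their titles name. The ciPSC medium held VPA, CHIR99021, 616452, Parnate, Forskolin, the retinoic acid receptor agonist AM580, EPZ004777, vitamin C and bFGF, so the controls had a retinoid in the medium as well. Neither the day of sampling, the vector and promoter behind Rxra OE, nor whether each iPSC group is 1 clone is stated in the labels. Whether the libraries of a group are from separate cultures is not stated, and the p-values therefore rest on library spread alone, which may be technical.

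Rxra stood at 21.7 and 21.7 TPM (a transcript share corrected for length) with Rxra OE against 8.70 and 9.57 in CTR, and Exosc3 at 5.97 and 4.01 with shE3 against 8.86 and 10.2 in shCTR. Pou5f1 ran from 1087 to 1532 TPM in the pluripotent groups and was listed at 0 in MEF. Summed fibroblast markers, all 12 of them at 1 TPM or more, marked the MEF libraries, which also held all 9 macrophage markers at a sum of 1064 to 1259 TPM. TPM values do not give the sequencing depth, and the actinomycin D libraries held 15382821 to 24186485 recovered reads. Mitochondrial genes took 52.9 to 57.1 percent of TPM in the CD table and 50.9 to 62.0 percent in the Rxra table. In the latter they took 59.3 and 62.0 percent in CTR against 50.9 and 50.9 with Rxra OE. Each comparison was also run with these genes removed, and their part in the results was not tested otherwise. Correlations across genes between the libraries of a group ran from 0.967, in CD 0 h, to 0.995, and genes are no replicates of each other. In bulk RNA, fewer cells of a type and less RNA per cell cannot be told apart.

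Mdk and Ptn form a small family of heparin-binding growth factors, and Mdk was first found as a gene that retinoic acid switches on in mouse embryonal carcinoma cells. Both proteins bind the sulfated sugar chains of syndecans and signal with the receptor phosphatase Ptprz1, the kinase Alk, the endocytic receptor Lrp1 and integrins. Sdc1 is typical of epithelia, Sdc2 of mesenchymal cells and Sdc3 of the nervous system, while Sdc4 is widespread and sits at focal adhesions. The heparanase Hpse trims the sugar chains, and metalloproteinases such as Mmp14 and Mmp7 shed syndecans from the surface.

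On GRCm38 (mm10), Mdk (ENSMUSG00000027239) lies at chr2:91929805-91932297 on the minus strand and Ptn (ENSMUSG00000029838) at chr6:36714929-36810220 on the minus strand. Sdc1 (ENSMUSG00000020592) lies at chr12:8771323-8793715, Sdc2 (ENSMUSG00000022261) at chr15:32920723-33034935 and Sdc3 (ENSMUSG00000025743) at chr4:130792537-130826319, all on the plus strand, and Sdc4 (ENSMUSG00000017009) at chr2:164424247-164443887 on the minus strand. The ends of the coding sequences show what the members share. The last 48 coding bases of each syndecan, stop codon included, encode the tail that binds PDZ proteins such as syntenin, and capitals mark the 14 bases that all 4 genes share when counted back from the stop codon. Each is from the GENCODE M21 transcript of the gene on GRCm38 (mm10), and each lies in 1 exon.
Sdc1, chr12:8791760-8791807, plus strand: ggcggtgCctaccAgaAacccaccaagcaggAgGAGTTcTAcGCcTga
Sdc2, chr15:33032493-33032540, plus strand: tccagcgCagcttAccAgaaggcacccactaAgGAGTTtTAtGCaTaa
Sdc3, chr4:130822762-130822809, plus strand: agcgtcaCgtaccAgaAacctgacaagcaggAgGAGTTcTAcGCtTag
Sdc4, chr2:164426086-164426133, minus strand: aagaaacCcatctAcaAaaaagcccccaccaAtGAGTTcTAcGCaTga
The shared bases gather at the 3′ end, and within this stretch Sdc1 and Sdc3 share 37 of 48 bases and Sdc2 and Sdc4 share 29, while the other pairs share 19 to 24.

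The last 90 coding bases of the growth factors encode their basic tails, with the in-frame lysine codons AAA and AAG in capitals. Each stretch spans an intron, so its coordinates run from the first to the last base over 2 exons.
Mdk, chr2:91930090-91930881, minus strand: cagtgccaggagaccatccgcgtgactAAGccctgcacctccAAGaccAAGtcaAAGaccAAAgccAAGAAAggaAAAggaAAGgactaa
Ptn, chr6:36715707-36741311, minus strand: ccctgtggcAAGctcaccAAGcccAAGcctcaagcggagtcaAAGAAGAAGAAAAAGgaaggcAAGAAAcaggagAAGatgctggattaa
Of the 30 codons shown, 9 in Mdk and 11 in Ptn are lysine codons, against 24 of 141 and 29 of 169 in the whole coding sequences.

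With CD, the growth factors went in opposite directions and the syndecans shifted from Sdc1 and Sdc2 to Sdc4. Of the 6 genes, 2 were higher and 3 lower at a Benjamini-Hochberg adjusted p under 0.05 from limma over all genes. In this comparison 62.6 percent of 13006 genes tested were called, 43.1 percent as higher and 19.5 percent as lower. Relative to the median gene the same counts held, against 61.9 percent of all genes. Mdk stood at 47.3 and 53.9 TPM in DMSO and at 236 and 253 TPM with CD. Both CD libraries lay far above both DMSO libraries, a 4.84-fold difference of the means and a log2 change of 2.25 ± 0.08 (SE; adjusted p = 1.77e-05) on the log2(TPM + 1) scale. The median gene rose by 0.18 on the log2 scale here, and relative to it Mdk rose by 2.06 ± 0.05. Ptn stood at 21.4 and 21.3 TPM in DMSO and at 9.79 and 10.5 with CD. Its groups did not overlap, and it fell by 1.00 ± 0.07 (adjusted p = 9.75e-05), or by 1.19 ± 0.06 relative to the median gene.

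Sdc2, the mesenchymal syndecan, stood at 37.5 and 38.8 TPM in DMSO and at 23.4 and 23.3 with CD, and fell by 0.68 ± 0.06 on the log2 scale (adjusted p = 0.000198). Sdc1, the most abundant of the 4 by TPM in all 4 libraries, stood at 135 and 148 TPM in DMSO and at 113 and 117 with CD, and fell by 0.30 ± 0.06 (adjusted p = 0.00679). Neither gene overlapped between groups. Sdc4, which works at focal adhesions, stood at 24.7 and 26.0 TPM in DMSO and at 39.4 and 39.2 with CD, and rose by 0.62 ± 0.06 (adjusted p = 0.000322). Relative to the median gene Sdc4 still rose by 0.42 ± 0.04, while Sdc1 and Sdc2 fell by 0.50 ± 0.04 and 0.88 ± 0.04. Sdc3 was the scarcest, at 2.89 to 3.29 TPM over all 4 libraries, and its groups overlapped (log2 change -0.04 ± 0.09, adjusted p = 0.703).

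**Figure D1:**
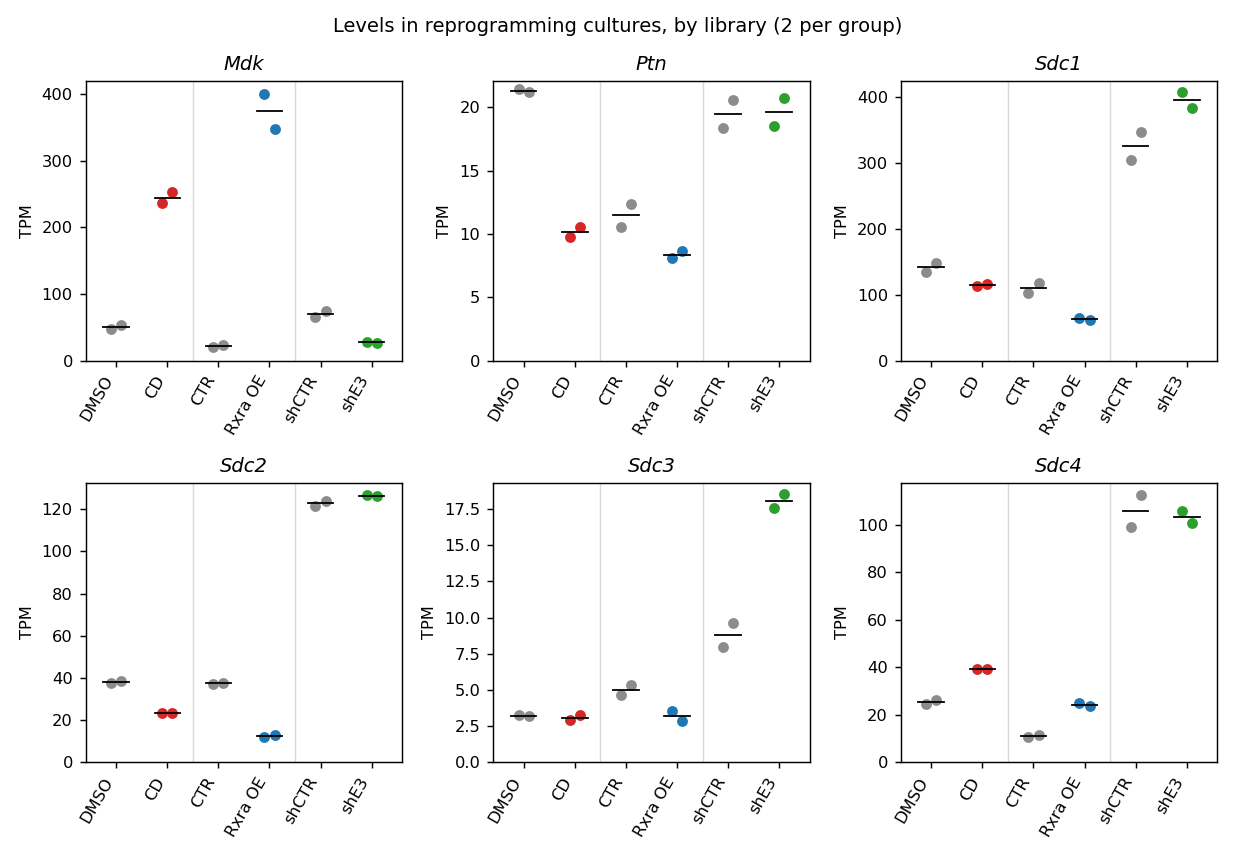
TPM of the 6 genes (linear axes from 0, a separate scale for each gene) in the 3 reprogramming tables, with a point for each library and a bar at the mean of each group; grey lines separate tables that were normalised separately. Mdk rises from about 47.3 to 53.9 TPM in DMSO to 236 and 253 with CD, stands at 347 and 401 with Rxra OE, and falls to 28.5 and 26.4 with shE3.

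With Rxra OE, Mdk and Sdc4 stood higher than in CTR and the other 4 genes lower, and these are descriptions with no test. Mdk was listed at 19.6 and 24.0 TPM in CTR and at 401 and 347 with Rxra OE, a 17.2-fold difference of the means. The log2 difference of Mdk was 4.04 ± 0.13 on the deposited values and 3.31 ± 0.09 against the median gene, which itself was 0.62 higher. Ptn was listed at 10.6 and 12.4 TPM in CTR and at 8.07 and 8.66 with Rxra OE, so the 2 growth factors stood on opposite sides.

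Sdc2 showed the largest drop in TPM among the syndecans by ratio, from 37.3 and 37.6 in CTR to 12.1 and 13.0 with Rxra OE. Sdc1 went from 102 and 118 TPM to 65.0 and 62.1, and Sdc3 from 4.67 and 5.32 to 3.55 and 2.87. Sdc4 went from 10.4 and 11.6 TPM in CTR to 24.9 and 23.5, so it was the only syndecan with more TPM in both Rxra OE libraries than in both CTR libraries. For Sdc4 the log2 difference was 1.07 ± 0.09 on the deposited values and 0.37 ± 0.06 once scaled to the median gene, and for Sdc2 it was -1.51 ± 0.09 and -2.21 ± 0.07. Ptn, Sdc1 and Sdc3 differed by -0.41, -0.78 and -0.51 on the deposited values. With mitochondrial genes removed, the log2 difference was 3.76 for Mdk, -0.74 for Ptn and 0.80 for Sdc4. It was then -1.11 for Sdc1, -1.86 for Sdc2 and -0.86 for Sdc3. The groups overlapped for none of the 6 genes, in a comparison where 82.6 percent of 13305 genes tested were called, and 70.9 percent relative to the median gene.

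With the hairpin against Exosc3, Mdk fell and Sdc3 rose, 2 of the 6 genes against 17.2 percent of 15700 genes tested. Mdk stood at 64.7 and 74.2 TPM in shCTR and at 28.5 and 26.4 with shE3. It was 2.53-fold lower by means, without overlap, with a log2 change of -1.30 ± 0.11 (adjusted p = 2.89e-05). Sdc3, the syndecan that serves as a Ptn receptor in nerve cells, stood at 7.98 and 9.64 TPM in shCTR and at 17.6 and 18.5 with shE3. It rose 2.05-fold by means, with a log2 change of 0.96 ± 0.13 (adjusted p = 0.000536). Both calls were lost without the filter on low values, with adjusted p of 0.0778 for Mdk and 0.088 for Sdc3, a setting under which 2 genes were called in all.

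The other members did not pass on the deposited values. Ptn stood at 18.4 and 20.6 TPM in shCTR and at 18.6 and 20.7 with shE3, with a log2 change of 0.01 ± 0.12 (adjusted p = 0.963). Sdc1 stood at 305 and 347 TPM in shCTR and at 407 and 383 with shE3. Its groups did not overlap, but the change of 0.28 ± 0.10 missed the threshold as deposited (adjusted p = 0.083) and passed it after scaling to the median gene (0.35 ± 0.04, adjusted p = 0.00358), where 29.2 percent of all genes were called. It also passed without shCTR replicate 2 (0.37, adjusted p = 0.00755). Sdc2, at 122 to 127 TPM over the 4 libraries, and Sdc4, at 99.0 to 112 TPM, gave adjusted p of 0.794 and 0.86. The antisense genes Gm12970 and Gm26716 overlap exons of Sdc3 and were listed at 0.0282 TPM or less in this table; whether counting used strand is not stated, so reads of the overlap cannot be told apart.

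**Figure D2:**
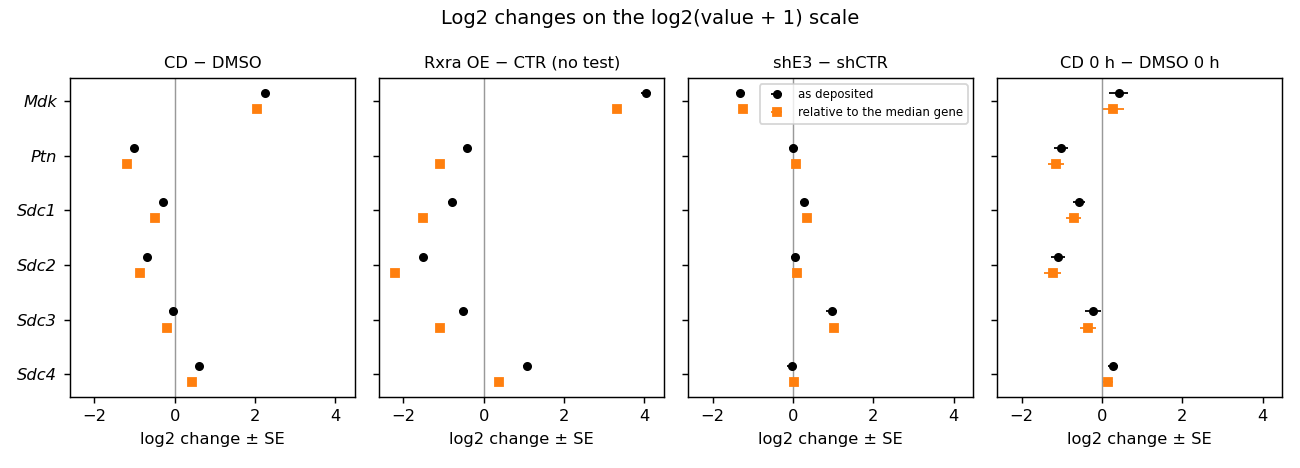
Log2 change of each gene on the log2(value + 1) scale, with its SE, in 4 comparisons, as deposited (black circles) and relative to the median gene (orange squares); the Rxra OE panel is a description with no test. Mdk lies right of 0 with CD (2.25) and Rxra OE (4.04) and left of 0 with shE3 (-1.30), and Sdc4 is the only syndecan right of 0 under both scalings in the CD, Rxra OE and 0 h panels.

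The balance within each pair of roles can be read from TPM, which are per length. Mdk made up 68.9 and 71.7 percent of the summed Mdk and Ptn TPM in the DMSO libraries and 96.0 percent in each CD library. It made up 65.0 and 65.9 percent in CTR and 98.0 and 97.6 with Rxra OE, against 77.9 and 78.3 in shCTR and 60.6 and 56.1 with shE3. Sdc4 took 12.3 and 12.1 percent of the summed syndecan TPM in DMSO and 22.1 and 21.5 with CD. In CTR it took 6.72 and 6.72 percent, and with Rxra OE 23.6 and 23.2. Sdc1 held the largest share in all 12 of these libraries, from 57.2 to 68.5 percent.

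**Figure D3:**
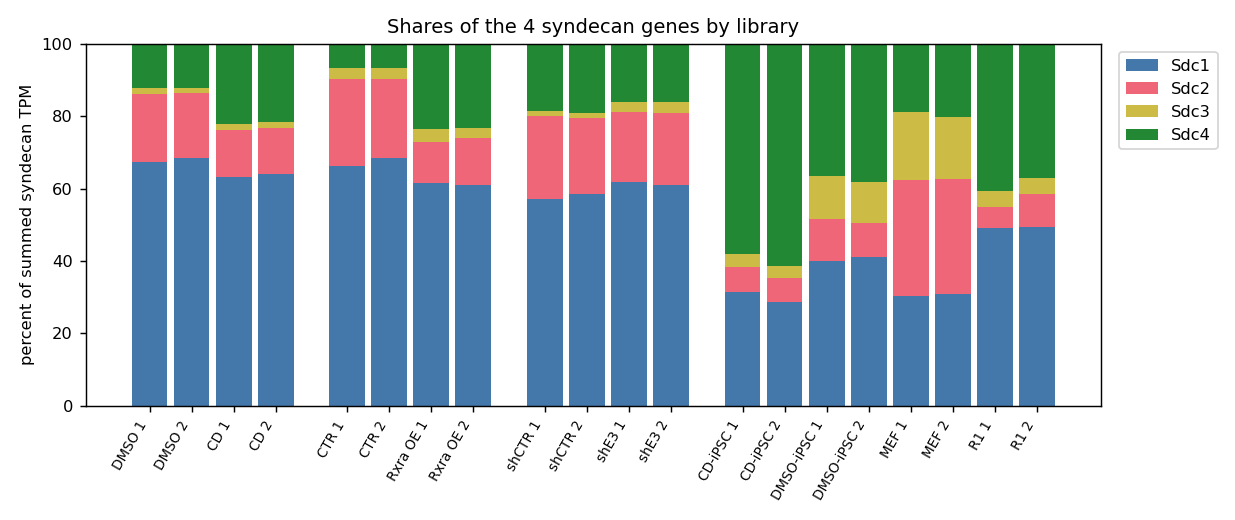
Share of each syndecan gene in the summed TPM of the 4 genes, in percent, with a bar for each library of the 4 TPM tables (gaps separate tables). Sdc1 fills most of each bar in the reprogramming cultures, Sdc4 fills 58.0 and 61.4 percent in CD-iPSC, and MEF is the group with the widest Sdc2 and Sdc3 bands.

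Marker genes of other cell types moved in the same comparisons. The 12 epithelial markers summed to 220 to 238 TPM in DMSO and 819 to 875 with CD, to 112 to 127 in CTR and 851 to 876 with Rxra OE, and to 299 to 337 in shCTR and 115 to 118 with shE3. All 12 were called higher with CD, against 43.1 percent of all genes, and 11 were called lower with shE3, against 12.3 percent. The 12 markers of extraembryonic endoderm-like (XEN-like) cells summed to 484 to 530 TPM in DMSO against 1872 to 1944 with CD, to 352 to 402 in CTR against 1793 to 1914 with Rxra OE, and to 1109 to 1268 in shCTR against 596 to 608 with shE3. This sum is not specific to XEN-like cells. In MEF it was 937 to 1038 TPM, with Sox17, Sall4, Foxa2 and Cited1 below 0.1 TPM in both libraries. Fibroblast markers summed to 1449 to 1523 TPM in DMSO against 955 to 987 with CD, to 1389 to 1544 in CTR against 584.7 to 588.5 with Rxra OE, and to 2926 to 3232 in shCTR against 2895 to 2939 with shE3. Macrophage markers summed to 148 to 178 TPM in shCTR against 367 to 374 with shE3, and to at most 14.7 TPM in the CD and Rxra tables, where Ptprc, Aif1 and Itgam were below 0.1 TPM. The part of these cell types in the changes of Mdk, Ptn and the syndecans was not tested.

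The other receptors of Mdk and Ptn went both ways with CD. Of 19 listed, 15 were tested, 5 rose, 7 fell and 3 did not pass, with a median log2 change of -0.14 against 0.18 over all genes. Of all genes, 43.1 percent were called higher here and 19.5 percent lower. Lrp1 fell from 82.4 and 86.2 TPM in DMSO to 46.3 and 46.6 with CD (-0.85 ± 0.06, adjusted p = 8.24e-05), and the laminin receptor subunit Itga6 fell from 17.9 and 18.3 to 11.3 and 10.2. Nucleolin (Ncl), a nucleolar protein that Mdk can bind at the cell surface, rose from 39.6 and 40.6 TPM to 59.7 and 61.1. With shE3, 4 of 18 receptor genes tested rose and 2 fell (8 and 4 after scaling to the median gene), where 17.2 percent of all genes were called and 29.2 percent after that scaling, among them Itga6, which rose from 86.2 and 90.7 TPM to 135 and 135. Lrp2, the large endocytic receptor of epithelia, fell from 6.85 and 8.42 TPM to 2.78 and 2.65 with shE3. With Rxra OE, 7 of 16 rose and 6 fell as deposited, where 82.6 percent of all genes were called. Relative to the median gene 5 rose and 9 fell, where 70.9 percent of all genes were called.

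Among the genes that act on syndecans, 5 of 13 rose with CD and 5 fell, where 62.6 percent of all genes were called. Hpse fell from 163 and 165 TPM in DMSO to 60.9 and 61.6 with CD (-1.41 ± 0.05, adjusted p = 1.99e-05), and Mmp14 fell from 176 and 184 to 80.6 and 84.1. Mmp7 rose from 0.518 and 0.378 TPM to 6.09 and 6.11, and Sdcbp2, a syntenin, from 5.84 and 7.08 to 20.9 and 19.7. The same 4 genes were called in these directions with Rxra OE, where Mmp7 stood at 14.1 and 14.1 TPM against 0.24 and 0.556, and Hpse at 29.2 and 28.4 against 86.3 and 97.0. With shE3, 1 of 14 rose and 1 fell, where 17.2 percent of all genes were called. After scaling to the median gene 7 rose and 2 fell, where 29.2 percent were called. On the deposited values Hpse rose from 327 and 375 TPM to 480 and 468, and Sdcbp2 fell from 14.2 and 13.7 to 7.19 and 6.18.

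Other heparan sulfate proteoglycans and the enzymes that build the chains were mixed with CD. Of all genes, 43.1 percent were called higher with CD and 19.5 percent lower. Of 11 proteoglycans tested, 4 rose and 6 fell, and the intracellular proteoglycan Srgn (61.2 and 84.9 TPM to 274 and 280) and the glypican Gpc3 (30.2 and 32.1 to 110 and 114) rose most. The basement membrane gene Col18a1 fell from 272 and 294 TPM to 125 and 136. Of 15 heparan sulfate enzymes tested, 4 rose and 9 fell, with the epimerase Glce falling from 25.5 and 25.4 TPM to 10.9 and 10.9 and the sulfotransferase Hs6st1 rising from 13.9 and 15.5 to 28.9 and 29.5. Of 14 chondroitin sulfate enzymes, 1 rose and 9 fell, and of 6 genes for the linker that joins chain to protein, 0 rose and 1 fell. Among chondroitin and dermatan sulfate proteoglycans, 4 of 11 were tested, 1 rose and 1 fell, the latter being Vcan, which dropped from 49.9 and 53.3 TPM to 22.9 and 22.9. With shE3, Srgn and Gpc3 fell, to 26.9 and 26.7 TPM from 96.6 and 103 and to 22.1 and 21.3 from 36.7 and 42.7. In that list 5 of 11 rose and 4 fell, against 17.2 percent of all genes called.

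Upstream of the genes, RefSeq promoter windows (GRCm38.p6) were given for 4 members, and those of the growth factor that fell and the syndecan that rose with CD are shown. Capitals mark the letters AGGTCA, the word that nuclear receptors such as retinoid receptors bind, GGGCGG, the GC box, and TATAAA, all searched on both strands; none of these words overlap here.
Sdc4, chr2:164443189-164443438, minus strand, bases 250 to 1 before the start: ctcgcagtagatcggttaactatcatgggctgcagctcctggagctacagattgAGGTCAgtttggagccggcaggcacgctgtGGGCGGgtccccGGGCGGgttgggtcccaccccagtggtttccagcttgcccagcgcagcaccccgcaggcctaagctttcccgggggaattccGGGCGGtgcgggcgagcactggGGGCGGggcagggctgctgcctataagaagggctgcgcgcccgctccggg
Ptn, chr6:36810221-36810429, minus strand, bases 250 to 42 before the start: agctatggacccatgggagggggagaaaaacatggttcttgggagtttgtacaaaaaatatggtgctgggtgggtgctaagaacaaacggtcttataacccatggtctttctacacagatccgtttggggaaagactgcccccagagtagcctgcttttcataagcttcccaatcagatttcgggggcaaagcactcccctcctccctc
The Sdc4 window holds 1 AGGTCA, 196 bases before the start, and 4 GGGCGG, and the Ptn window holds none of the 3 words. GENCODE also lists a longer Sdc4 transcript with an intron over this window. Of 32851 mouse promoters in the table, 14.0 percent hold AGGTCA in the 250 bases before the start, 32.7 percent GGGCGG and 12.4 percent TATAAA. The windows of Sdc1 (bases 250 to 74 before the start) and Sdc3 (bases 250 to 1) hold 2 and 3 GGGCGG and 0 AGGTCA. The Ptn and Sdc1 windows stop short of the start, so their counts do not cover the 250 bases behind these shares. A match is a description of letters and not a binding site.

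Before actinomycin D, in CPM (a read share, not corrected for length), 3 of the 6 genes were lower with CD and 0 higher, where 14.6 percent of 17064 genes tested were called and 6.41 percent were lower. Ptn stood at 31.7 and 35.6 CPM in DMSO 0 h and at 13.4 and 19.1 in CD 0 h, and fell by 1.03 ± 0.17 on the log2 scale (adjusted p = 0.00713). Sdc2 stood at 151 and 202 CPM against 69.3 and 94.7, and fell by 1.10 ± 0.18 (adjusted p = 0.00588). Sdc1 stood at 494 and 545 CPM against 301 and 410.4, and fell by 0.56 ± 0.15 (adjusted p = 0.0345). None of these 3 overlapped between groups, and all 3 were lost without replicate 2 of DMSO 0 h, with adjusted p of 0.0654, 0.058 and 0.225. Sdc1 was lost as well without CD 0 h replicate 1 (-0.34, adjusted p = 0.145). The median gene was 0.19 higher with CD here, and after scaling to it the same 3 genes were lower, with log2 changes of -1.15 ± 0.20 for Ptn, -1.23 ± 0.22 for Sdc2 and -0.70 ± 0.19 for Sdc1, where 15.9 percent of genes were called.

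Mdk in this table did not repeat the distance seen in the CD table. It stood at 128 and 130 CPM in DMSO 0 h and at 128 and 233 in CD 0 h, so the CD libraries differed from each other and 1 of them matched DMSO. The log2 change of 0.42 ± 0.24 did not pass (adjusted p = 0.209), and it was 0.85 without CD 0 h replicate 1 (adjusted p = 0.0334) and -0.01 without CD 0 h replicate 2. Sdc4 stood at 97.5 and 94.7 CPM in DMSO 0 h and at 103 and 132 in CD 0 h, without overlap, but 0.27 ± 0.13 did not pass (adjusted p = 0.147). Sdc3 overlapped, at 33.2 and 28.3 against 20.8 and 33.1 CPM (adjusted p = 0.438), and passed only without CD 0 h replicate 2 (-0.54, adjusted p = 0.0334). Summed epithelial markers stood at 1322 to 1440 CPM in DMSO 0 h and 2100 to 2123 in CD 0 h, and macrophage markers at 333 to 467 against 142 to 221 CPM; their part in these values was not tested.

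After transcription was stopped, the share of reads of Ptn, Sdc1 and Sdc2 grew in both arms. CPM are shares of the RNA that remains, so a stable RNA gains CPM while others decay. The median gene fell by 0.33 in DMSO and 0.34 in CD on the log2 scale at 8 h. Per spike-in RNA, Ptn at 8 h also stood at 186 and 197 percent of its 0 h mean in CD and at 160 and 136 in DMSO. Sdc2 stood at 184 and 192 percent in CD and at 136 and 120 in DMSO. Such values above the 0 h mean cannot be read as RNA left, and their cause was not tested. At 8 h against 0 h, 4 of the 6 genes were called in DMSO (31.0 percent of all genes tested) and 3 in CD (54.4 percent). All but Sdc4 in DMSO were calls of a higher share, which 3.73 percent of genes had in DMSO and 13.2 percent in CD. After scaling to the median gene, 4 of the 6 were higher and 0 lower in each arm, Ptn, Sdc1, Sdc2 and Sdc3, against 16.7 percent of genes higher in DMSO and 24.0 percent in CD. Sdc3 then rose by 0.73 ± 0.19 in DMSO (adjusted p = 0.0207) and by 0.55 ± 0.19 in CD (adjusted p = 0.0329). Ptn reached 65.8 and 54.2 CPM in DMSO 8 h (0.81 ± 0.17, adjusted p = 0.0103) and 39.0 and 38.4 in CD 8 h (1.23 ± 0.17, adjusted p = 0.0027). Sdc2 reached 289 and 249 CPM in DMSO 8 h (0.62 ± 0.18, adjusted p = 0.025) and 195 and 190.1 in CD 8 h (1.24 ± 0.18, adjusted p = 0.0027). Sdc1 reached 750.1 and 681 CPM in DMSO 8 h (0.46 ± 0.15, adjusted p = 0.0377) and 549 and 535 in CD 8 h (0.62 ± 0.15, adjusted p = 0.00579). In DMSO all 3 calls were lost without DMSO 0 h replicate 1 (adjusted p of 0.0784, 0.19 and 0.192 for Ptn, Sdc2 and Sdc1) or without DMSO 8 h replicate 1, and with scaling to the spike-ins. With the median gene scaling the changes of Ptn, Sdc2 and Sdc1 were 1.21, 1.03 and 0.87 in DMSO and 1.55, 1.58 and 0.97 in CD.

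Sdc4 did not gain a share. It went from 97.5 and 94.7 CPM in DMSO 0 h to 72.9 and 74.2 at 8 h, and its fall of 0.38 ± 0.13 passed on the deposited values (adjusted p = 0.0492) and with scaling to the spike-ins (-0.65, adjusted p = 0.0375), but the change was 0.02 after scaling to the median gene (adjusted p = 0.906), under which 30.1 percent of genes were called. Leaving out any of these 4 libraries ended the call (adjusted p = 0.0768 to 0.192). In CD it went from 103 and 132 to 106 and 97.5 CPM (-0.19 ± 0.13, adjusted p = 0.233), and passed without CD 0 h replicate 1 (-0.37, adjusted p = 0.0431) and with scaling to the spike-ins (-0.53, adjusted p = 0.0188). Per spike-in RNA, Sdc4 stood at 61.8 and 64.7 percent of its 0 h mean at 8 h in DMSO and at 69.2 and 68.4 in CD. The other 5 genes stood higher in CD, at 90.5 to 197 percent. In DMSO the others stood at 65.8 to 160.4 percent, the lowest being Mdk. Some values passed the 0 h mean although transcription was stopped, so this ratio is not a direct measure of RNA left.

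Mdk had its highest group mean at 4 h in both arms. Per spike-in RNA, its 4 h libraries in DMSO stood at 176 and 176 percent of the 0 h mean. In CD they stood at 128 and 139 percent. Such values above the 0 h mean cannot be read as RNA left. Mdk went from 128 and 130 CPM in DMSO 0 h to 243 and 218 at 4 h and 136 and 101 at 8 h. The 4 h value was above both 0 h libraries, 0.83 ± 0.24 (adjusted p = 0.0317). With scaling to the spike-ins this call was lost (adjusted p = 0.0862 by limma). At 8 h the groups of Mdk overlapped. In CD it went from 128 and 233 to 238 and 284 and then 209 and 205 CPM, and the 4 h change of 0.59 ± 0.24 passed after scaling to the median gene (adjusted p = 0.0632 on the deposited values and 0.0145 after that scaling, under which 50.3 percent of genes were called) or without CD 0 h replicate 2 (1.02, adjusted p = 0.00119). At 4 h, 2 of 6 genes were called in DMSO (21.7 percent of all genes, 1.31 percent higher), Mdk and Ptn, and 2 in CD (45.1 percent, 9.11 percent higher), Ptn and Sdc2. After scaling to the median gene, Mdk and Ptn were called in DMSO (20.9 percent of genes) and all but Sdc4 in CD. Neither DMSO call held on the deposited values without DMSO 0 h replicate 1 (adjusted p = 0.147 for Mdk and 0.194 for Ptn) or without either 4 h library. Mdk was also lost without DMSO 0 h replicate 2 (adjusted p = 0.0691). The Sdc2 call was lost without CD 0 h replicate 1 (0.29, adjusted p = 0.246) or either CD 4 h library.

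**Figure D4:**
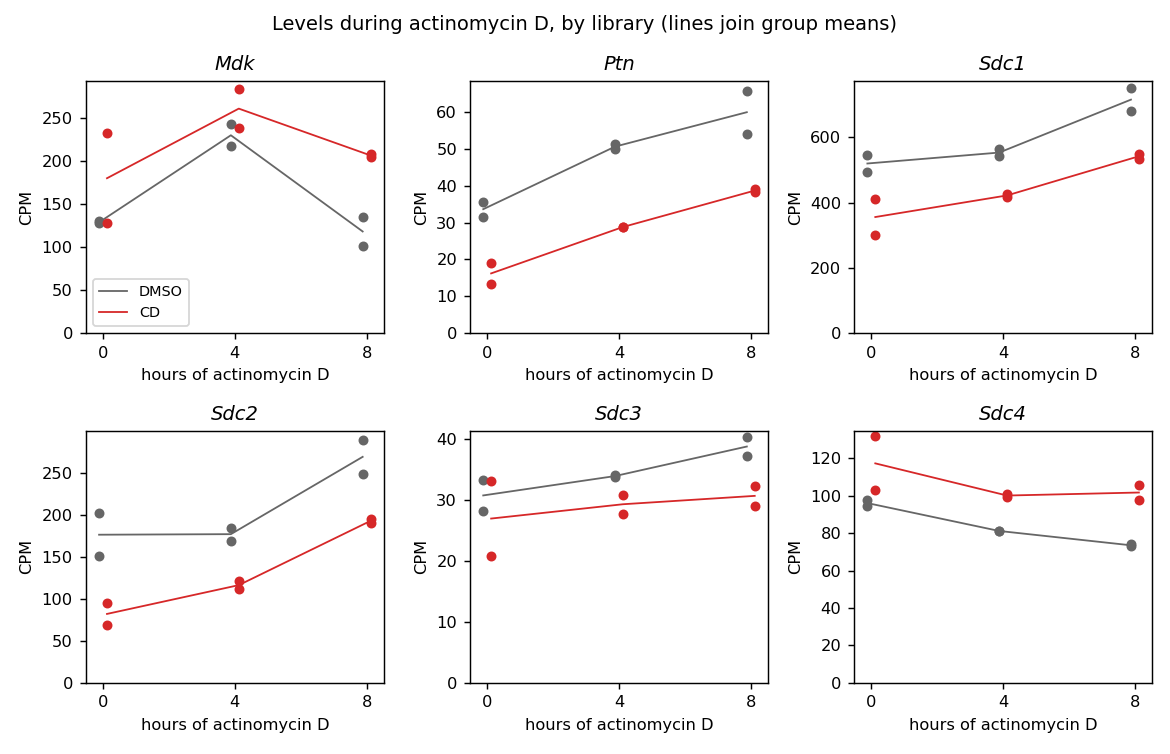
CPM of the 6 genes against hours of actinomycin D (linear axes from 0), with a point for each library and lines through the group means, DMSO in grey and CD in red. Ptn, Sdc1 and Sdc2 climb in both arms with DMSO above CD, Mdk is highest at 4 h in both arms, and Sdc4 is the gene whose group means at 8 h lie below those at 0 h in both arms.

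The change over time did not pass a test of the difference between CD and DMSO for any of the 6 genes with limma, at 4 h or at 8 h, where 0 and 0.00586 percent of all genes were called. At 8 h Sdc2 came nearest, with a gain 0.62 ± 0.25 larger in CD (adjusted p = 0.411 by limma). At an unadjusted p under 0.05 stood 1 of the 6 at 8 h, Sdc2, among 1939 of 17064 genes, and 0 at 4 h, among 771. After scaling to the median gene Sdc2 did not reach that level (0.55 ± 0.31), and edgeR and DESeq2 on recovered reads called 0 of the 6 as well. A p that misses the threshold does not show equal decay.

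In the iPSC table, the growth factors separated fibroblasts from pluripotent cells in opposite directions. Ptn stood at 2157 and 2334 TPM in MEF and at 0.936 to 2.70 TPM in the 6 pluripotent libraries, with log2 changes on the log2(TPM + 1) scale of -9.72 ± 0.17 for CD-iPSC, -9.39 ± 0.17 for DMSO-iPSC and -10.09 ± 0.17 for R1. Mdk stood at 24.0 and 32.9 TPM in MEF, at 288 and 186 in CD-iPSC, 143 and 192 in DMSO-iPSC and 160.5 and 179 in R1. It was higher than in MEF in each pluripotent group, 8.34-fold by means in CD-iPSC (adjusted p = 3.38e-05), 5.89-fold in DMSO-iPSC (log2 change 2.52 ± 0.25, adjusted p = 8.57e-05) and 5.97-fold in R1 (2.55 ± 0.25, adjusted p = 7.41e-05). Mdk thus made up 1.10 and 1.39 percent of the summed growth factor TPM in MEF and 98.1 to 99.5 percent in the pluripotent libraries. These 3 comparisons share the MEF libraries, and 5, 6 and 6 of the 6 genes were called in CD-iPSC, DMSO-iPSC and R1, against 68.7, 67.6 and 69.1 percent of 17414 genes tested.

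Sdc1, Sdc2 and Sdc3 were lower in every pluripotent group than in MEF. Sdc2 stood at 127 and 127 TPM in MEF and at 4.17 to 9.15 in the pluripotent libraries, Sdc3 at 74.4 and 68.3 against 3.04 to 8.92, and Sdc1 at 119.9 and 123 against 30.3 to 42.7. Their log2 changes ran from -4.38 to -3.68 for Sdc2, from -4.14 to -2.91 for Sdc3 and from -1.96 to -1.56 for Sdc1. Sdc4 stood at 74.7 and 80.3 TPM in MEF, 27.8 and 28.6 in DMSO-iPSC and 29.8 and 26.2 in R1. It was lower than in MEF in both (-1.43 ± 0.11, adjusted p = 2.02e-05, and -1.44 ± 0.11, adjusted p = 1.74e-05), but in CD-iPSC, at 78.7 and 82.9 TPM, it overlapped with MEF (0.06 ± 0.11, adjusted p = 0.633). The part of the macrophage markers of MEF in these differences was not tested.

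**Figure D5:**
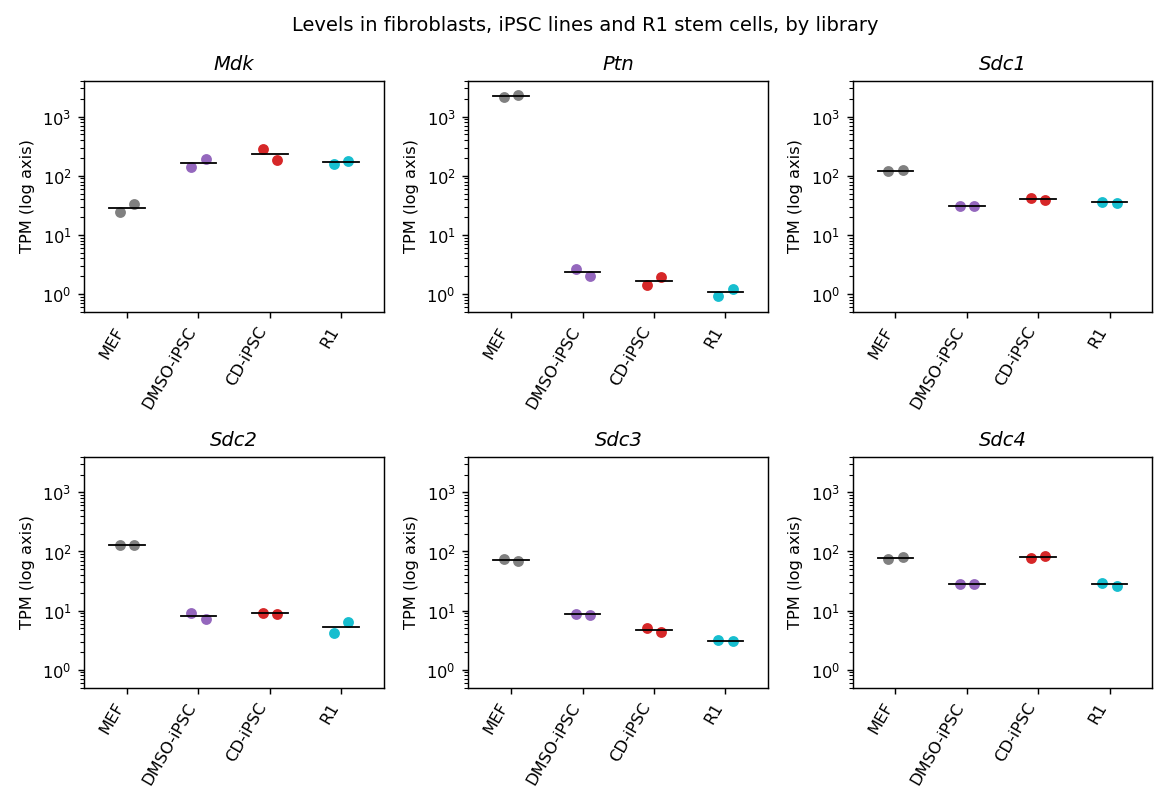
TPM of the 6 genes on a log axis, the same for every gene, in MEF, DMSO-iPSC, CD-iPSC and R1, with a point for each library and a bar at the mean. Ptn falls from 2157 and 2334 TPM in MEF to under 3 in the pluripotent libraries, Mdk lies higher in these than in MEF, and Sdc4 in CD-iPSC stands at the level of MEF.

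Sdc4 set the CD-iPSC apart from the other pluripotent cells. CD-iPSC held 2.87 times the mean TPM of DMSO-iPSC (1.49 ± 0.11, adjusted p = 0.00023) and 2.89 times that of R1 (1.50 ± 0.11, adjusted p = 0.000553), with no overlap in either. Sdc1 was higher in CD-iPSC than in DMSO-iPSC, at 42.7 and 38.8 against 30.3 and 30.6 TPM (0.41 ± 0.10, adjusted p = 0.0144), a call lost without either DMSO-iPSC library (adjusted p = 0.0725 and 0.0695). Sdc3 was lower, at 5.09 and 4.36 against 8.92 and 8.28 TPM (-0.75 ± 0.14, adjusted p = 0.00646). Mdk, Ptn and Sdc2 did not pass (adjusted p = 0.172, 0.163 and 0.602; Mdk passed only without CD-iPSC replicate 2, with 0.79 and adjusted p = 0.0448), so 3 of 6 genes were called against 38.5 percent of all genes. The summed syndecan TPM was 136 and 135 in CD-iPSC, 76.0 and 74.6 in DMSO-iPSC, 73.0 and 70.5 in R1 and 396 and 399 in MEF. Sdc4 took 58.0 and 61.4 percent of it in CD-iPSC, 36.5 and 38.3 in DMSO-iPSC and 40.7 and 37.1 in R1.

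Against R1, which both iPSC groups share as the reference, 3 of 6 genes were called in CD-iPSC (23.7 percent of all genes) and 2 in DMSO-iPSC (21.1 percent). Besides Sdc4, Sdc2 (9.15 and 8.90 against 4.17 and 6.39 TPM; adjusted p = 0.0398) and Sdc3 (5.09 and 4.36 against 3.14 and 3.04; adjusted p = 0.0485) were higher in CD-iPSC. Neither call held in every run with 1 library left out. Both were lost without R1 replicate 1, with log2 changes of 0.44 for Sdc2 and 0.50 for Sdc3. Both were also lost without CD-iPSC replicate 1, with 0.68 and 0.39. Sdc3 was lost also without R1 replicate 2 (adjusted p = 0.172), and Sdc2 without CD-iPSC replicate 2 (adjusted p = 0.0885). In DMSO-iPSC, Sdc3 (1.23 ± 0.14, adjusted p = 0.00303) and Ptn (0.70 ± 0.17, adjusted p = 0.0292) were higher than in R1. The median gene was 0.13 lower there, and after scaling to it Sdc2 was called too (0.72 ± 0.19, adjusted p = 0.0416), 3 of 6 genes against 16.5 percent of all genes. Ptn was at 2.70 and 2.03 against 0.936 and 1.20 TPM, and its call was lost whichever of these 4 libraries was left out (adjusted p = 0.0673 to 0.139).

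Genes that act with Mdk, Ptn and the syndecans were called between CD-iPSC and DMSO-iPSC in both directions, against 38.5 percent of all genes called. Of 18 receptor genes tested, 5 were higher and 2 lower, with the receptor phosphatase Ptprs at 51.8 and 43.6 against 15.8 and 14.6 TPM (1.58 ± 0.14, adjusted p = 0.000392). Of 14 partners and sheddases, 3 were higher and 4 lower, and Mmp14 stood at 13.9 and 10.8 against 46.4 and 50.9 TPM (-1.90 ± 0.13, adjusted p = 0.000215). Of 11 heparan sulfate proteoglycans, 2 were higher and 2 lower: Gpc3 stood at 56.4 and 67.5 against 23.5 and 18.4 TPM and Cd44, the hyaluronan receptor, at 1.70 and 2.17 against 28.8 and 25.8. Of 19 heparan sulfate enzymes, 3 were higher and 6 lower, and of 15 chondroitin sulfate enzymes 1 and 8. The fibroblast markers summed to 107 to 117 TPM in CD-iPSC against 262 and 262 in DMSO-iPSC, and the macrophage markers to 54.6 to 56.6 against 83.5 to 93.4; their part in these differences was not tested.

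Against MEF, the genes that make the sugar chains were mostly called lower in all 3 pluripotent groups, which share the MEF libraries. In CD-iPSC and in DMSO-iPSC, 17 of 19 heparan sulfate enzymes and 14 of 15 chondroitin sulfate enzymes were called lower, against 35.4 and 36.2 percent of all genes. In R1, 17 of 19 heparan sulfate enzymes and 14 of 15 chondroitin sulfate enzymes were called lower as well, against 32.9 percent of all genes, with median log2 changes of -1.44 and -2.22 against 0.11 over all genes. Hs6st2, a sulfotransferase of heparan sulfate, stood at 65.5 and 60.8 TPM in MEF and at 1.87 and 1.94 in R1. The small proteoglycan Bgn, at 5690 and 5071 TPM in MEF, stood at 50.8 and 46.9 in R1.

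Over all 32 libraries, centred within each table, the members fell into sets by their log2 levels, as a description in which MEF and the pluripotent libraries carry much of the spread. Ptn, Sdc1, Sdc2 and Sdc3 went together (Pearson r of 0.88 for Ptn and Sdc1, 0.94 for Ptn and Sdc2 and 0.96 for Sdc1 and Sdc2, and for Sdc3 0.94 with Ptn, 0.90 with Sdc2 and 0.84 with Sdc1). Mdk ran against them (-0.59 with Ptn, -0.71 with Sdc1, -0.72 with Sdc2 and -0.62 with Sdc3), and Sdc4 with none closely (0.21 to 0.36 with the others). Among 6970 genes with a mean of at least 5 in every table, the profile nearest to Mdk was that of Echdc2 (0.98), followed by Egfl7 and Rpa3 (0.97 each). Nearest to Ptn were App, Aqp1 and Mgst1 (0.99 each), to Sdc1 Ptk7, Ephx1 and Lrp1 (0.98 each), and to Sdc2 Prnp, Ccl8 and Plxnb2 (0.98 each). Sdc4 had no such close partner, its nearest being Uap1, Ndrg1 and Soat1 (0.89, 0.89 and 0.88). The libraries share tables and controls, so these values have no test.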

How the data were processed

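The 6 genes and the gene lists were chosen with earlier results of these data known. TPM values were deposited by the authors for the reprogramming (CD, Rxra OE, shE3) and pluripotent cell tables. The deposited signal of the actinomycin D table carries no unit in its headers; it was checked to be CPM, with at least 99.99 percent of values whole reads within a tolerance of 0.001. Tools named in the submitters' processing notes are fastp 0.20.1, HISAT2 2.1.0 and StringTie 2.0, with build mm10; options and the use of strand are not stated there, and how reads shared between gene models were split depends on them.

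A gene was tested where 2 libraries or more reached 1, with limma 3.58.1 (R 4.3.3; eBayes with trend; 2-sided) on log2(value + 1), 1 fit per table, at a Benjamini-Hochberg adjusted p under 0.05 over all genes; this scale understates changes of low genes. Where the median gene shifted by over 0.1, calls or values of the 6 genes after median-ratio scaling are given too. In R1 against MEF the calls were the same 6. Counts for the gene lists and markers are as deposited unless that scaling is named. edgeR 4.0.16 and DESeq2 1.42.0 were run on recovered reads. The tests were tried on simulated data. Named list genes are up to 2 per list, direction and comparison, the largest called changes without overlap whose higher group averaged 5 or more; some are left out for length. Gene names and coding sequences are from GENCODE M21 and promoters from RefSeq; proteins and the promoters of Mdk and Sdc2 were not used here. Deviations of same-numbered libraries correlated at -0.69 (CD 0 h and DMSO 8 h) to 0.55 (CD 0 h and DMSO 0 h). The sign varied between groups, so the numbers were not taken to pair samples, although the groups compared at 0 h shared deviations. Python 3.11.15, pandas 2.3.3, numpy 2.4.6 and matplotlib 3.10.9 were used.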

Additional observations from a re-analysis of the deposited data

Results flagged for a closer look

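Sdc1 differed in opposite directions between the CD and DMSO groups of the reprogramming cultures and of the derived iPSC. On the log2 scale it was lower with CD than with DMSO during reprogramming, in the CD table (-0.2984) and in the 0 h libraries of the actinomycin D table (-0.5614), and higher in CD-iPSC than in DMSO-iPSC (0.4082). The flag required that both CD libraries lay on 1 side of both DMSO libraries and that the signs differed. That separation is therefore no added evidence. With 1 library left out, the change ran from -0.78 to -0.34 at 0 h and from 0.34 to 0.47 between the iPSC groups. Both of these calls were lost in some of those runs. With scaling to the spike-ins the 0 h change was -0.34 (adjusted p = 0.101 by limma). The difference between the stages was not tested, since the tables were normalised separately. The labels do not say whether each iPSC group is 1 clone. A difference between clones and an effect of CD cannot be told apart there.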

How the results depend on the processing

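Of 1144 recomputed values for the 6 genes, 979 kept direction and, where tested, side of the threshold, 63 lost and 31 gained the call, 18 untested ones moved and 53 changed sign, 3 of these for a called value (Sdc4 in DMSO at 8 h). The untested Rxra OE values counted as kept within the SE of the main value and as moved beyond it. The cause of these changes was not tested. The 5 calls between CD and DMSO in reprogramming held in every alternative run. With 2 libraries a group, the p-values rest on a spread pooled over groups and genes, and a lone library is assumed to vary like the others; TPM give no depth.

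Without a filter on low values 2 genes and 0 of the 6 were called with shE3, 1087 genes at CD 0 h against DMSO 0 h, 1762 genes and 0 members in DMSO at 4 h, 2793 and 1 at 8 h, 1 member in CD at 4 h and 1 in CD-iPSC against R1. Median-ratio scaling called 4576 genes with shE3, 5 members in CD at 4 h and 1 gene in the difference at 4 h. Spike-in scaling called 289 genes at 0 h, 4 genes and 0 members in DMSO at 4 h, 2997 and 1 at 8 h, 1 member in CD at 4 h and 0 genes in the difference at 8 h, as did removal of mitochondrial genes. With edgeR 5 members in CD at 4 h and 1 gene in the difference at 4 h were called, and with DESeq2 4192 genes at 0 h, 5 members in CD at 4 h, and 2 and 54 genes in the differences at 4 and 8 h. A pseudocount of 0.1 called 3 genes in the difference at 8 h.

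With the replicate block, 1 member was called in DMSO at 4 h, 2 at 8 h, 1 in CD-iPSC against R1 and 1 in DMSO-iPSC against R1, and no other member count changed. A crossed pairing of the CD and Rxra tables, chosen after seeing the data, called 5 members with CD.

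Sign changes with mitochondrial genes removed were -0.039 for Ptn and -0.0085 for Sdc2 with shE3 and 0.038 for Mdk in DMSO-iPSC against R1. Median-ratio scaling gave Sdc4 0.035 with shE3 and Mdk 0.16 in DMSO-iPSC against R1. With median-ratio scaling, edgeR and DESeq2 in turn, Sdc4 was 0.063, 0.071 and 0.070 in DMSO at 4 h, 0.024, 0.0054 and 0.047 at 8 h, 0.16, 0.22 and 0.17 in CD at 4 h and 0.15, 0.22 and 0.16 at 8 h, and Mdk was 0.27, 0.28 and 0.33 in DMSO at 8 h. Spike-in scaling gave Sdc3 -0.011 and -0.11 in CD at 4 and 8 h, Mdk -0.079 in CD at 8 h, and -0.14 and -0.13 for Sdc3 and Sdc4 in the difference at 4 h.

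Leaving out 1 library at a time, genes called ran from 6686 to 7329 with CD (members 5 to 5), 8909 to 10768 with Rxra OE, 1700 to 3079 with shE3 (2 to 3), 234 to 6114 at 0 h (0 to 4), 1 to 4089 in DMSO at 4 h (0 to 1), 305 to 6567 at 8 h (0 to 3), 3614 to 8766 in CD at 4 h (1 to 5), 4663 to 9839 at 8 h (3 to 5), 0 to 11 and 1 to 346 in the differences (0 to 0), 3981 to 6491 between the iPSC groups (2 to 4), 9532 to 11558, 9245 to 10250 and 9494 to 10551 against MEF for CD-iPSC (5 to 5), DMSO-iPSC (6 to 6) and R1 (6 to 6), and 1489 to 3794 (1 to 2) and 827 to 1148 (1 to 1) against R1. Changes that crossed 0 were, with CD, Sdc3 (-0.11 to 0.027), with shE3 Ptn (-0.066 to 0.088) and Sdc4 (-0.12 to 0.058), at 0 h Mdk (-0.010 to 0.85) and Sdc3 (-0.54 to 0.11), in DMSO Sdc2 at 4 h (-0.19 to 0.23) and Mdk at 8 h (-0.35 to 0.071), and in CD Sdc3 at 4 h (-0.17 to 0.48), Mdk at 8 h (-0.17 to 0.69) and Sdc3 at 8 h (-0.11 to 0.54). In the difference at 4 h they were Mdk (-0.67 to 0.19), Ptn (-0.0072 to 0.48), Sdc1 (-0.052 to 0.39), Sdc3 (-0.32 to 0.33) and Sdc4 (-0.15 to 0.20), and at 8 h Mdk (-0.030 to 0.83), Sdc1 (-0.061 to 0.39) and Sdc3 (-0.44 to 0.21). Between the iPSC groups Sdc2 crossed 0 (-0.0002 to 0.29), and against R1 Mdk (-0.24 to 0.18) and Sdc4 (-0.076 to 0.10) did in DMSO-iPSC.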
